A study of Mus musculus with 6 samples.

Results

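Annexins and S100a10 were followed in hepatocytes from mice with a hepatocyte-specific knockout of the splicing factor SRSF1. The 10 genes were Anxa1, Anxa2, Anxa3, Anxa4, Anxa5, Anxa6, Anxa7, Anxa11, Anxa13 and S100a10, chosen by name among 19123 genes tested, with the brightest row of the deposited table for each. Each of them had 1 named row, so brightness decided nothing. Anxa2 had been picked out because it was among the largest increases in these same arrays, and the question was which other annexins follow it. Its own values are therefore a description without a test, and those of the others were read with earlier results of these data known. Anxa8, Anxa9 and Anxa10 are given beside the 10 to complete the family.

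The SRSF1HKO group consisted of 3 samples of primary hepatocytes from such mice on the C57BL/6 strain, and the WT group of 3 samples from wild type C57BL/6 mice. All mice were 3 months old and none was treated. Cells were taken by perfusion of the liver, and the labels also call them cultures. The sources used here do not give the driver of the deletion, the alleles carried by the WT mice or the time in culture. Each title carries a number of its own, but the labels do not say that it marks an animal, so p-values weigh only the spread among these arrays, part of which may be technical.

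Annexins are calcium-dependent proteins that bind the negatively charged phospholipids of the inner side of cell membranes through a conserved core, and they differ in a variable N-terminal segment. Through that segment annexin A2 binds a dimer of S100A10, a member of the S100 family that does not need calcium, and the resulting tetramer links membranes to actin, takes part in exocytosis and membrane repair, and on the cell surface serves as a site where plasminogen is activated. In liver, annexin A2 is usually low in resting hepatocytes and abundant in macrophages, endothelial cells, stellate cells and bile duct cells.

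The promoters of Anxa2 and Anxa5, the annexins with the largest differences between the groups, are printed first, because they differ in the elements they hold. Each line gives the 250 bases before the RefSeq transcription start (GRCm38.p6), 5′ to 3′ on the strand of the gene, and capitals mark matches to a motif searched for on both strands. The Anxa2 window lies at chr9:69453433-69453682 on the plus strand and the Anxa5 window at chr3:36475888-36476137 on the minus strand.
Anxa2: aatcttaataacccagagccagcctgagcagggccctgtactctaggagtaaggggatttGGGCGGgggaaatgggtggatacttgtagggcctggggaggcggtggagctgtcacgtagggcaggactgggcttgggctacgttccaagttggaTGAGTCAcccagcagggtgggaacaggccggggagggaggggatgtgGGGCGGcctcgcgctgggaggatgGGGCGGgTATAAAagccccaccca
Anxa5: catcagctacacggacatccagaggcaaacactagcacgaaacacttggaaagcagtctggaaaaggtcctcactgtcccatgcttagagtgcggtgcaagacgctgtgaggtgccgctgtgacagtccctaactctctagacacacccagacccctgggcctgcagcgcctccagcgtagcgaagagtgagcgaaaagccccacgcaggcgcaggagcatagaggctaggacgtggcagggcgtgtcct
The Anxa2 window held 1 TATA box (TATAAA), which begins 17 bases before the start, 3 GC boxes (GGGCGG) and 1 AP-1 element (TGANTCA), which begins 95 bases before the start. The Anxa5 window matched none of the 6 motifs searched, which also included CCAAT, the TEAD element GGAATG and the E-box CACGTG. Over windows of the same length in all 32851 RefSeq promoters, 12.4% held TATAAA, 32.7% GGGCGG, 33.8% CCAAT, 6.75% TGANTCA, 12.6% GGAATG and 6.02% CACGTG. None of the searched motifs overlapped in the Anxa2 window. Of the 10 genes 6 had a promoter in the RefSeq table, and among those windows TGANTCA stood only in that of Anxa2, and TATAAA also in that of Anxa1. Outside the 10, the window of Anxa10 held TATAAA and 2 matches of TGANTCA. The entries missing were Anxa3, Anxa6, Anxa13 and S100a10. A match describes letters and not a used site.

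The arrays did not share a scale, and 1 of them stood apart. Median intensity over all rows was 18.6 to 28.8 in SRSF1HKO arrays and 25.6 to 39.8 in WT arrays, so the median gene lay -0.44 log2 units lower in SRSF1HKO as deposited and -0.01 once quantile-normalized. All log2 differences are SRSF1HKO minus WT, on log2(intensity + 16) after quantile normalization, with standard error from 3 against 3 arrays unless stated otherwise. This scale understates differences of dim genes. A gene is called where limma's Benjamini-Hochberg adjusted p over all genes was under 0.05 both on that scale and on the deposited one, in the same direction. On the deposited scale the fit gave nearly equal standard errors to unlike genes (0.25 for Alb, 0.28 for Anxa2 and 0.29 for Anxa9). The deposited p therefore follows mainly the size of the difference, and hardly the spread of the gene itself. SRSF1HKO replicate 1 was the array without Xist signal (9.95, against 2122 to 3532 elsewhere) and with Y-linked Eif2s3y signal (129.6, against 2.27 to 7.78 elsewhere), so by these genes it came from a male, and thus from another animal than the other SRSF1HKO arrays, which like the WT arrays came from females. Srsf1 itself read 242, 371 and 386 in SRSF1HKO arrays and 666, 667 and 607 in WT arrays, as deposited, and was not called (-0.53 ± 0.18, limma adjusted p = 0.19 after quantile normalization, and 0.010 as deposited). The row may include probes outside the deleted part, so it is a weak check of the genotype. Albumin, the hepatocyte marker Alb, read 6937, 10757 and 9491 in SRSF1HKO arrays and 11022, 10035 and 11053 in WT arrays. In such bulk samples, fewer cells of a type and less RNA per cell cannot be told apart.

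Among the 10 genes, Anxa2 and Anxa5 were called, both higher in SRSF1HKO, and 8 were not called. Over all genes 2.24% were called by the same rule, 0.842% higher and 1.40% lower, and as Anxa2 was chosen on this contrast nothing is read from the count. S100a10, the partner of Anxa2, passed the threshold after quantile normalization but not on the deposited scale. Of all genes 4.14% passed after quantile normalization, whatever the deposited scale gave, 2.73% higher and 1.41% lower, and on the deposited scale 0.931% passed higher and 6.86% lower. Of the 10 log2 differences 9 were above 0, with a median of 0.35, beside 48.8% above 0 and a median of -0.01 over all genes. Leaving out Anxa2, which was chosen for its increase, 8 of 9 were above 0, with a median of 0.33. On the deposited values, where the median gene was shifted down, 6 of the 10 were above 0, and 5 of 9 without Anxa2. After quantile normalization 4 of the 10 (Anxa1, Anxa2, Anxa5 and S100a10) had all SRSF1HKO arrays above all WT arrays, as did 11.6% of all genes, and none had them all below, as 10.1% did. Without Anxa2, 3 of 9 lay wholly above. As deposited, Anxa1, Anxa2 and Anxa5 lay wholly above, a pattern of 1.69% of all genes.

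**Figure D1:**
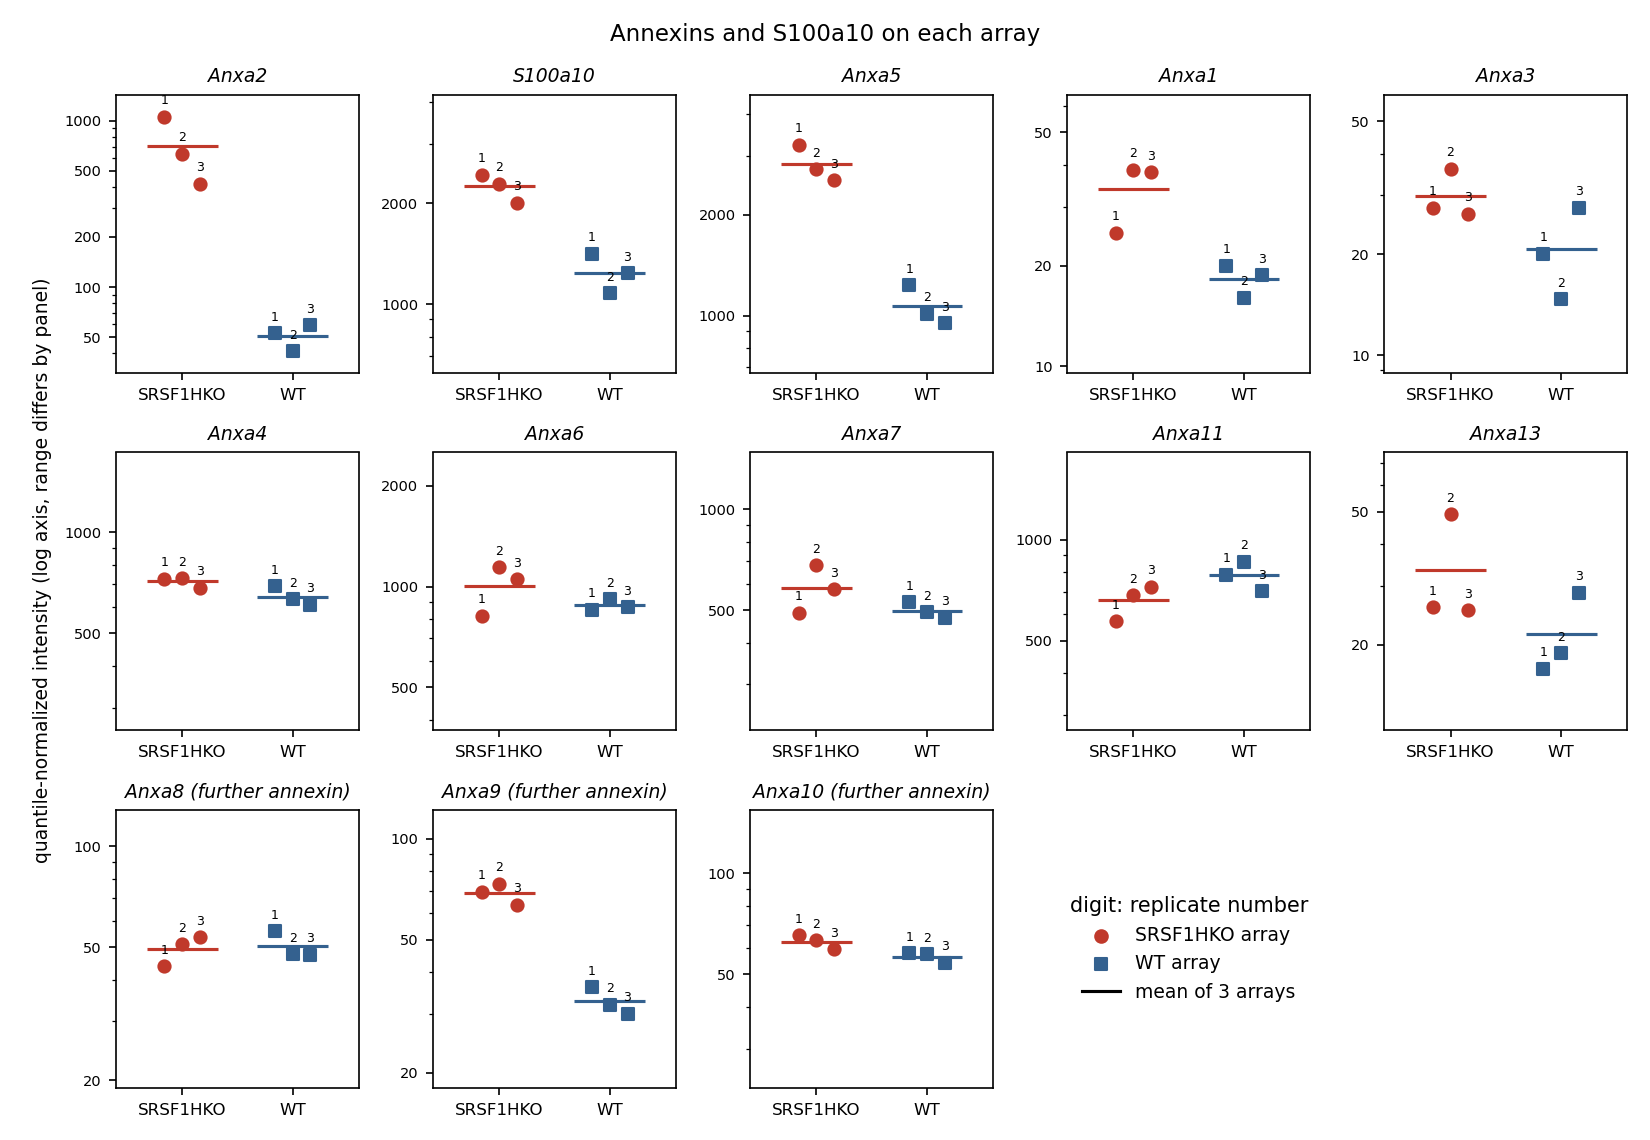
Quantile-normalized intensity (log axis) of the 10 genes and of Anxa8, Anxa9 and Anxa10 on each array, with SRSF1HKO arrays on the left, WT arrays on the right, the replicate number above each point and a line at the mean of 3 arrays. Anxa2 lies at 418 to 1058 in SRSF1HKO and at 41.1 to 59.0 in WT, while Anxa4, Anxa6, Anxa7 and Anxa11 overlap between the groups.

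Anxa2 encodes the membrane and actin linker itself. Its row (6990216) read 759.6, 576 and 364 in SRSF1HKO replicates 1, 2 and 3, and 63.7, 60.3 and 56.1 in WT replicates 1, 2 and 3, on the deposited scale. Every SRSF1HKO array was far above every WT array, and the SRSF1HKO arrays differed from each other much more than the WT arrays did. The quantile-normalized means were 703 ± 325 in SRSF1HKO and 51.0 ± 9.07 in WT (SD, n = 3 each), a ratio of 13.8, and the ratio of the deposited means was 9.44. The log2 difference was 3.33 ± 0.29, at rank 9 of 19123 genes, and without SRSF1HKO replicate 1 it was 3.08 ± 0.18. Over all alternative settings it lay between 2.65 and 3.68. An Anxa2-related pseudogene is in the RefSeq annotation, and whether the probes tell it apart was not tested.

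S100a10 encodes the S100 subunit of the annexin A2 tetramer, which is known to be protected from degradation by binding annexin A2. It read 1672, 2100.0 and 1769.7 in SRSF1HKO arrays and 1908, 1418 and 1204 in WT arrays on the deposited scale. These groups overlapped, because WT replicate 1 lay above SRSF1HKO replicates 1 and 3. After quantile normalization it was at 2435, 2289 and 2009 in SRSF1HKO and at 1413, 1077 and 1236 in WT, with no overlap. The log2 difference was 0.85 ± 0.12 (limma adjusted p = 0.0064) on this scale, and 0.31 ± 0.26 (limma adjusted p = 0.32) on the deposited one, so S100a10 was not called. After median scaling it was 0.82 ± 0.37 (limma adjusted p = 0.56). The transcript of the partner therefore had a smaller difference than that of Anxa2 on every scale used here, and the size of that gap is given below as a ratio within arrays.

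Anxa5, the annexin widely used to stain exposed phosphatidylserine, rose in SRSF1HKO. It read 2248, 2510.2 and 2271 in SRSF1HKO arrays and 1671, 1325 and 908 in WT arrays, as deposited. The groups did not overlap on either scale, and the SRSF1HKO arrays lay close together. The deposited means were 2343 ± 145 in SRSF1HKO and 1301 ± 382 in WT (SD, n = 3 each). The log2 difference was 1.40 ± 0.13 (limma adjusted p = 0.00072), on the deposited scale 0.88 ± 0.26 (limma adjusted p = 0.013), and without SRSF1HKO replicate 1 it was 1.32 ± 0.11. With median scaling, where a call needed that fit alone, it was not called (1.39 ± 0.35, limma adjusted p = 0.11). The call was also lost, on the deposited scale, without SRSF1HKO replicate 2, SRSF1HKO replicate 3 or WT replicate 2 (limma adjusted p = 0.12, 0.10 and 0.13). The quantile-normalized difference was 1.42, 1.47 and 1.38 in these 3 settings.

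The bright annexins without a called difference were Anxa4, Anxa6, Anxa7 and Anxa11. Anxa4, an annexin of epithelial secretory cells, read 539.6, 669 and 602 in SRSF1HKO arrays and 919.6, 836 and 572 in WT arrays as deposited, with a log2 difference of 0.15 ± 0.11 (limma adjusted p = 0.65). Anxa6, which has a doubled core and sits on endosomes and the plasma membrane, read 602, 1047 and 931 in SRSF1HKO and 1145, 1209 and 824 in WT, with a difference of 0.18 ± 0.14 (limma adjusted p = 0.67). For both genes the groups overlapped on either scale. Anxa7, also called synexin and known for promoting membrane fusion, read 379, 624 and 502 in SRSF1HKO and 696, 659.5 and 442 in WT (0.21 ± 0.14, limma adjusted p = 0.60). These 3 differences turned sign on the deposited values (-0.33, -0.31 and -0.25), where each lay above the median gene at -0.44.

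Anxa11, which takes part in vesicle transport and in carrying RNA granules on lysosomes, was the only one of the 10 below 0 after quantile normalization. It read 434, 625 and 639 in SRSF1HKO arrays and 1049, 1133 and 660.2 in WT arrays. On the deposited scale all SRSF1HKO arrays lay below all WT arrays, a pattern that 28.0% of all genes shared. The quantile-normalized groups overlapped, with a difference of -0.24 ± 0.13 (limma adjusted p = 0.47), and the deposited difference of -0.71 ± 0.26 was not called either (limma adjusted p = 0.069).

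Anxa1, Anxa3 and Anxa13 were dim. Anxa1, an inhibitor of leukocyte recruitment known as lipocortin, read 26.8, 26.9 and 29.3 in SRSF1HKO and 23.3, 23.7 and 17.7 in WT, and was below the array's median in 4 of 6 arrays. Its SRSF1HKO values were above its WT values on either scale, with a difference of 0.53 ± 0.16 (limma adjusted p = 0.11). Without SRSF1HKO replicate 1 it was 0.67 ± 0.16 (limma adjusted p = 0.016 after quantile normalization and 0.47 as deposited), so it was not called there. Anxa3 had a difference of 0.33 ± 0.17 (limma adjusted p = 0.43) at deposited intensities of 20.3 to 29.3 in SRSF1HKO and 21.7 to 26.1 in WT. Anxa13, an intestinal and renal epithelial annexin, had one of 0.38 ± 0.21 (limma adjusted p = 0.47) at 19.6 to 34.5 in SRSF1HKO and 19.7 to 27.9 in WT. Both were below the array's median in 3 or 4 of the 6 arrays, their groups overlapped, and no difference was detectable at these intensities.

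Of the annexins outside the 10, Anxa9 passed the threshold after quantile normalization and Anxa8 and Anxa10 did not. Anxa9, an annexin whose core has lost the usual calcium-binding residues, read 71.6, 52.4 and 49.2 in SRSF1HKO arrays and 43.0, 47.1 and 28.4 in WT arrays. The groups did not overlap on either scale. Its difference was 0.80 ± 0.13 (limma adjusted p = 0.0096), unchanged at 0.80 ± 0.14 without SRSF1HKO replicate 1, but 0.41 ± 0.29 on the deposited scale (limma adjusted p = 0.25), so it was not called. Anxa8 had a difference of -0.02 ± 0.13 (limma adjusted p = 0.98) and Anxa10 one of 0.12 ± 0.12 (limma adjusted p = 0.77). Anxa10 lay at 65.3, 63.2 and 59.3 in SRSF1HKO and at 57.7, 57.4 and 54.2 in WT after quantile normalization, without overlap, while its deposited groups overlapped. Over the 12 annexins the median difference was 0.27, and 2 were called, as among the 10 genes. Without Anxa2 the median of the family was 0.21.

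**Figure D2:**
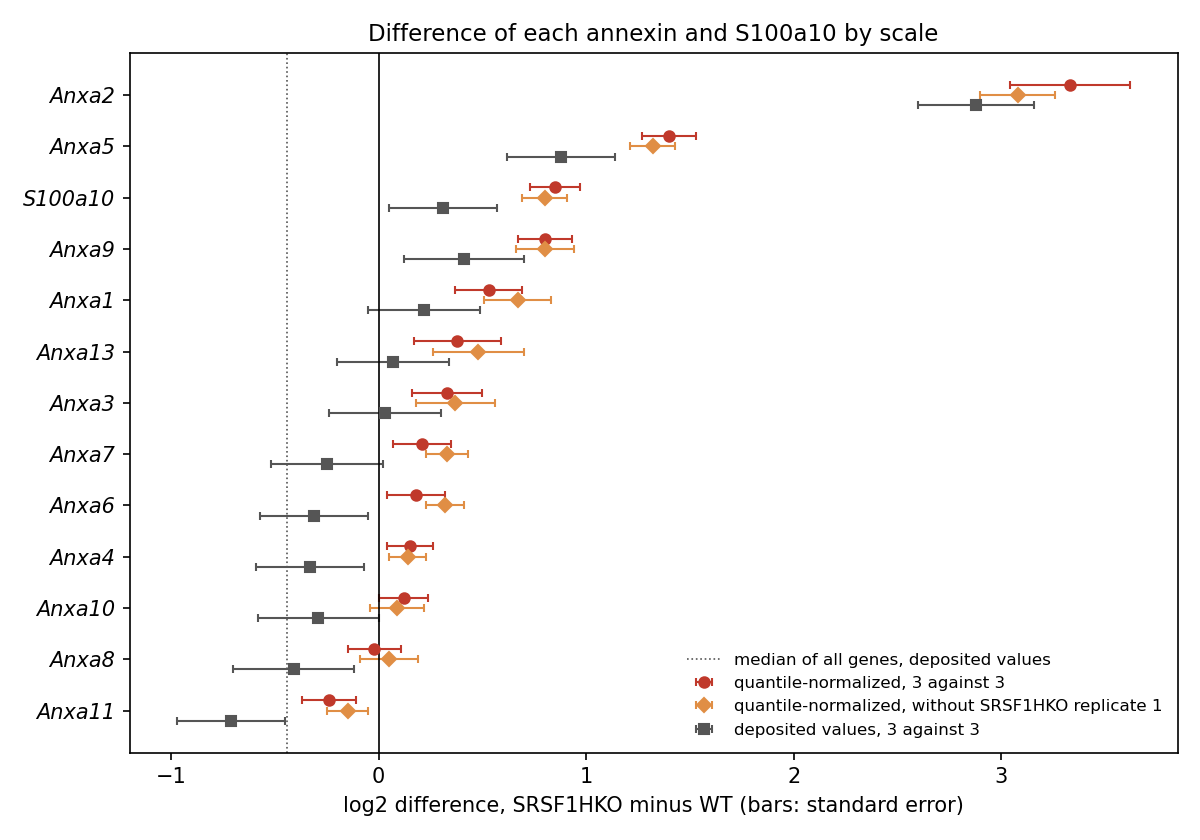
Log2 difference, SRSF1HKO minus WT, of each annexin and S100a10 with its standard error, after quantile normalization with all arrays (circles), without SRSF1HKO replicate 1 (diamonds) and on the deposited values (squares). Anxa2 at 3.33 and Anxa5 at 1.40 stand to the right of the others, S100a10 and Anxa9 lie near 0.80, and the deposited values sit lower throughout because the median of all genes is -0.44 there (dotted line).

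Ratios between genes of 1 array do not depend on the scale of that array, so they were used to compare the bright genes with each other (log2 of deposited intensities, no pseudocount, 11 pairs, chosen after the values were seen). The level of a ratio reflects the probes, and only its change between groups is read. Anxa5 over Anxa4 was 2.06, 1.91 and 1.91 in SRSF1HKO arrays, and 0.86, 0.66 and 0.67 in WT arrays. Against each of Anxa4, Anxa6, Anxa7 and Anxa11 the ratio of Anxa5 was higher in every SRSF1HKO array than in any WT array, by 1.15 to 1.62. S100a10 over Anxa4 was 1.63, 1.65 and 1.56 in SRSF1HKO and 1.05, 0.76 and 1.07 in WT. Its ratios to the same 4 annexins were also without overlap, and higher by 0.57 to 1.04. Anxa5 over S100a10 was 0.43, 0.26 and 0.36 in SRSF1HKO and -0.19, -0.10 and -0.41 in WT, a difference of 0.58. The pairs share genes and were picked with the differences in view, so these ratios are a description, and an exact two-sided permutation test cannot go below p = 0.1 with 3 against 3 arrays. The share of all genes whose ratios to the same 4 annexins do not overlap was not computed. Anxa2 over S100a10, given as a description, was -1.14, -1.87 and -2.28 in SRSF1HKO and -4.90, -4.56 and -4.42 in WT, a difference of 2.87. Anxa2 was much dimmer than S100a10 in WT arrays, so this pair is more open to array differences that change with brightness.

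**Figure D3:**
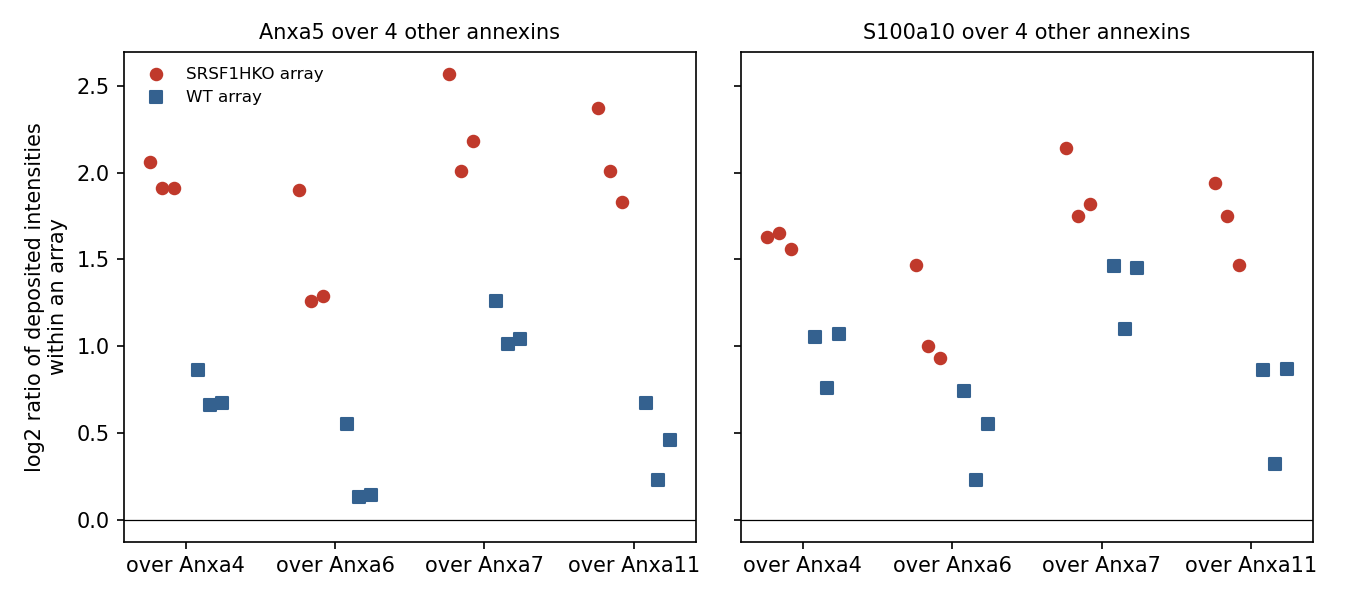
Log2 ratio of deposited intensities within each array for Anxa5 (left) and S100a10 (right) over Anxa4, Anxa6, Anxa7 and Anxa11, with SRSF1HKO arrays (circles) left of WT arrays (squares). In all 8 pairs shown the 3 SRSF1HKO points lie above the 3 WT points, most widely for Anxa5 over Anxa11, with a difference of 1.62. The pairs share genes, so they are not 8 separate results.

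The profile of Anxa2 over the 6 arrays was compared with those of the tested genes. Gene models, predicted names and olfactory and vomeronasal receptors were left out. The measure was the root mean square difference of quantile-normalized log2 values centred on the WT mean. The 6 nearest were Dhrs9 (0.21), a dehydrogenase of the retinoid and steroid class, Pygb (0.23), the brain form of glycogen phosphorylase, Nid1 (0.26), a basement membrane protein, Tff3 (0.29), a trefoil peptide, Cybb (0.32), the heavy chain of the phagocyte oxidase, and Scd2 (0.37), a fatty acid desaturase. Their log2 differences ran from 3.03 to 3.67. Among annexins and S100a10, Anxa5 was nearest to Anxa2 at 1.41, followed by S100a10 at 1.79 and Anxa9 at 1.83, and Anxa11 was farthest at 2.58. Nearest to S100a10 were Arntl (0.06), the clock factor BMAL1, Vasp (0.08), an actin regulator, Ctsl (0.08), a lysosomal protease, Icosl (0.08), a T cell costimulator, Rras (0.08), a small GTPase, and Fam83f (0.09). Of the annexins, Anxa9 was nearest to S100a10 at 0.11. With 2 groups of 3 arrays this measure is mostly set by the size of the group difference.

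Genes related to annexins were taken from 4 lists, other S100 genes, binding partners and receptors, plasminogen activation, and C2-domain proteins. A place on a list does not mean that a gene works with annexins. Of 46 such genes measured, none was called higher and 1 lower, beside 0.842% and 1.40% over all genes, and by the quantile-normalized threshold, whatever the deposited scale gave, 3 were higher and 1 lower, beside 2.73% and 1.41% over all genes. Their median difference was 0.07. After quantile normalization 28 of the 46 were above 0, and 6 on the deposited values, where 1259 of all 19123 genes were. Ahnak, the giant scaffold that binds the annexin A2 and S100A10 tetramer, read 125, 114 and 89.6 in SRSF1HKO arrays and 56.1, 69.0 and 46.3 in WT arrays. Its groups did not overlap, and its difference was 1.19 ± 0.14 (limma adjusted p = 0.0020 after quantile normalization and 0.078 as deposited), so it was not called. The ferlin Myof (0.81 ± 0.17) and Sri, the sorcin that binds annexin A7 (0.41 ± 0.09), were past the threshold after quantile normalization only. Of 15 measured partners and receptors, 12 had a difference above 0 after quantile normalization, with a median of 0.24.

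Of 14 other S100 genes measured, none was called, like S100a10 itself, and 7 were above 0, with a median of 0.01. The 2 of smallest p were S100a11, which binds annexin A1, at 0.58 ± 0.14 (limma adjusted p = 0.052), and S100g at 0.42 ± 0.18 (limma adjusted p = 0.30). Both had SRSF1HKO arrays above all WT arrays after quantile normalization and passed that threshold without SRSF1HKO replicate 1 (limma adjusted p = 0.025 and 0.022), but were not called there. Of 7 measured genes of plasminogen activation none was called. Plat, the tissue activator that the annexin A2 tetramer binds together with plasminogen, had a difference of 0.66 ± 0.16 (limma adjusted p = 0.051) at deposited intensities of 25.4 to 42.7 in SRSF1HKO and 18.9 to 22.0 in WT. Plg, plasminogen itself and a product of hepatocytes, read 2048, 3153 and 2666 in SRSF1HKO and 4668, 4367 and 4152 in WT, without overlap (-0.29 ± 0.08, limma adjusted p = 0.088). It was called lower without SRSF1HKO replicate 1, a setting in which 1010 genes were called lower, against 267 with all arrays. Of 13 C2-domain genes, Syt1, a calcium sensor of vesicle fusion, fell, at 424, 612 and 573 in SRSF1HKO and 1533, 1239 and 997 in WT (-0.71 ± 0.12, limma adjusted p = 0.014), and it was not called without WT replicate 1 or 3 or after median scaling.

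Because annexins and S100a10 are also expressed by other cells of the liver, marker lists are set beside their differences. Of 14 macrophage markers measured, 1 was called higher (0.842% over all genes), with a median difference of 0.50, and their summed quantile-normalized intensity was 1791 to 2102 in SRSF1HKO arrays and 941 to 1434 in WT arrays. The called marker was Cd68, a lysosomal glycoprotein of macrophages, at 306, 139 and 103 in SRSF1HKO and 85.1, 68.3 and 31.1 in WT (1.81 ± 0.35, limma adjusted p = 0.021). It was 1.42 ± 0.21 and still called without SRSF1HKO replicate 1, and not called without SRSF1HKO replicate 2. Of the 14 differences 13 were above 0 after quantile normalization. Over all 67 measured genes of the marker lists this held for 47, and for 15 on the deposited values. Ptprc, the leukocyte antigen CD45, passed the threshold after quantile normalization only (0.71 ± 0.15, limma adjusted p = 0.030), and C1qb, C1qc, Cd5l and Timd4 (0.76, 0.73, 0.73 and 0.52) did not overlap between the groups on that scale and were not called. Clec4f, a Kupffer cell lectin, and Csf1r, the receptor of macrophage growth factor, had differences of 0.13 ± 0.13 and 0.03 ± 0.18 (limma adjusted p = 0.78 and 0.97). The 14 stellate cell, fibroblast and mesothelial markers had a median of 0.35 and none called. Their summed quantile-normalized intensity was 3110.3 to 4094 in SRSF1HKO and 2222 to 2612 in WT. Rgs5, a pericyte gene, passed the threshold after quantile normalization only (0.86 ± 0.18, limma adjusted p = 0.029). Without SRSF1HKO replicate 1 the matrix genes Dcn (1.30 ± 0.15) and Lum (1.78 ± 0.17) were called higher, as were 183 genes in that setting. With all arrays they had 0.95 ± 0.27 and 1.17 ± 0.42 (limma adjusted p = 0.097 and 0.21). Their groups overlapped on either scale, and SRSF1HKO replicate 1 lay within the range of the WT arrays.

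Of the remaining marker lists, the biliary sum was higher and the hepatocyte sum lower in every SRSF1HKO array after quantile normalization. The other sums overlapped between the groups. All marker sums are of quantile-normalized values and were not taken on the deposited scale, where the groups of each biliary marker overlapped. The 12 endothelial markers summed to 1469 to 1945 in SRSF1HKO and 1587 to 2212 in WT, with a median of -0.07. The 6 measured biliary markers summed to 804 to 1103 in SRSF1HKO and 662 to 786 in WT, with a median of 0.10, and Krt19, the defining bile duct keratin, had a difference of 0.01 ± 0.12 (limma adjusted p = 0.99). The largest differences among them were those of Prom1 (0.53 ± 0.21, limma adjusted p = 0.26) and Sox9 (0.44 ± 0.16, limma adjusted p = 0.22). Epcam, Cftr and Muc1 had -0.02, 0.09 and 0.11, so the higher sum was not a rise of the whole list. Neutrophil markers (7 measured) had a median of 0.05 and lymphocyte markers (5 measured) one of 0.13, with overlapping sums. The 9 measured hepatocyte markers summed to 59020.5 to 63156 in SRSF1HKO and 65462 to 66813 in WT, with a median of -0.02. Pck1, the gluconeogenic carboxykinase, was called lower without SRSF1HKO replicate 1, as were 1010 genes in that setting. None of the measured markers was called with all arrays except Cd68, and none was listed at 0. Alb passed the threshold after quantile normalization only (-0.34 ± 0.05, limma adjusted p = 0.0044). As deposited its difference was -0.26 ± 0.25 (limma adjusted p = 0.38), and its groups overlapped. Quantile normalization gave this very bright row the same value, 11728, on all 3 WT arrays, so the standard error of 0.05 does not hold its measured spread. The same Alb values enter the hepatocyte sum. The part of other cells in the differences of Anxa2, Anxa5 and S100a10 was not tested.

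**Figure D4:**
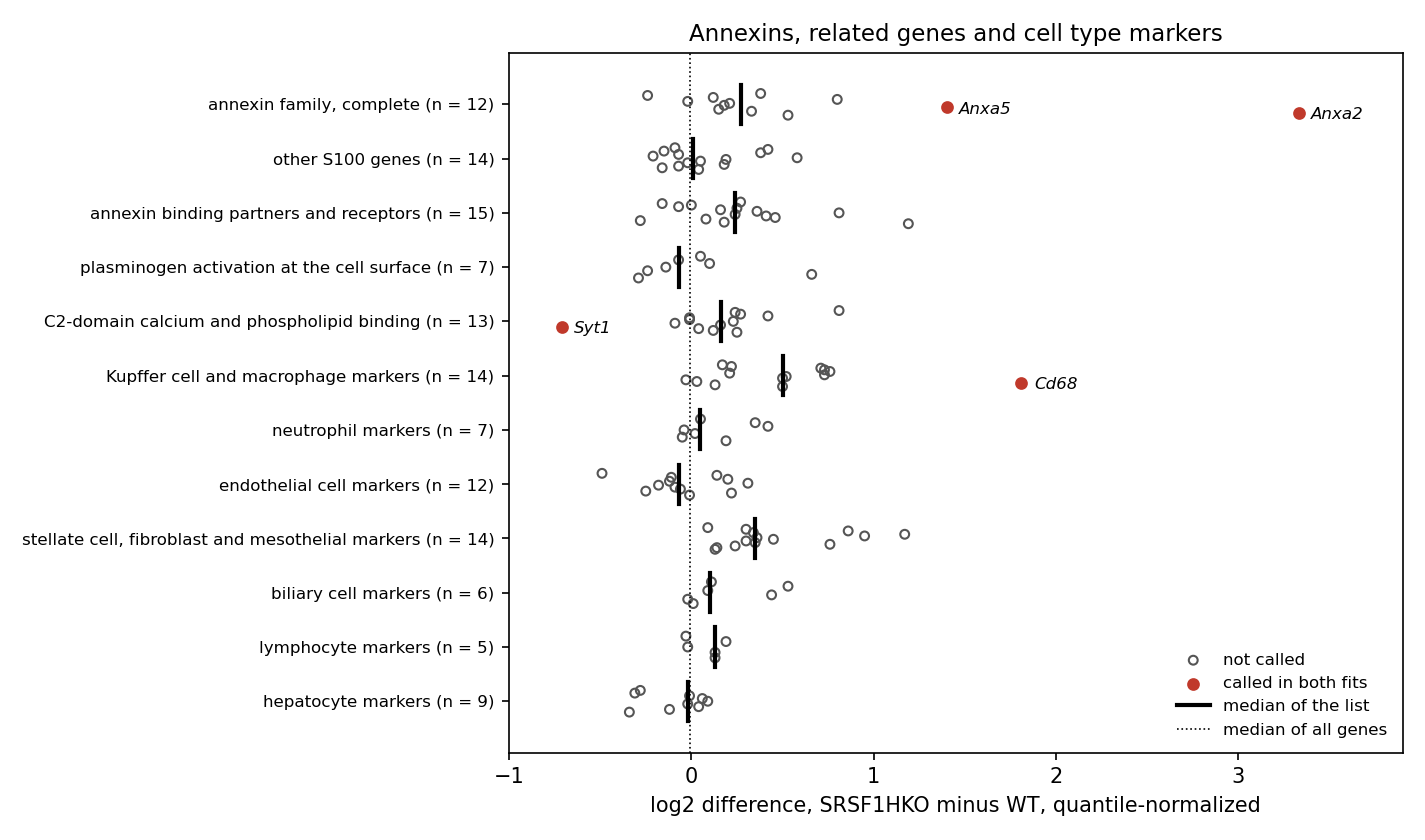
Log2 difference, SRSF1HKO minus WT, after quantile normalization for each measured gene of the annexin family, the related lists and the cell type markers, with filled points for genes called in both fits, bars at the list medians and a dotted line at the median of all genes. Anxa2, Anxa5 and Cd68 are the called increases at 3.33, 1.40 and 1.81, and Syt1 is the called decrease at -0.71.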

How the data were processed

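Total RNA of 6 hepatocyte samples was hybridised to 1 mouse exon array each. The deposited values are intensity summaries made with PLIER on the mm9 build, per the submitters' processing notes. The sources used here do not give the PLIER version, its background step or whether arrays were normalized to each other. The table had 238609 rows, of which 24343 carried 1 gene symbol in the platform annotation and 1797 several; the latter were not named. Values were taken as log2(intensity + 16), rows with a mean below the 40th percentile (5.18 on this scale) were dropped, and the brightest row of each gene gave 19123 genes. Both groups were fitted without covariates in limma 3.58.1 under R 4.3.3, with a trended eBayes, after quantile normalization of all rows and on the deposited scale, and a call needed both. Each fit was tested by itself on simulated data with noise set by mean intensity, and the rule that needs both fits was not simulated. Array number limits the precision.

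The genes and lists were chosen with earlier results of these data known. Named were the 10 genes, the other 3 annexins, Srsf1 and genes that check the animals, the 6 profiles nearest to Anxa2 and to S100a10, and of each list of related genes the called genes or, with none called, the 2 of smallest p. Other list genes were named after their values were seen: Sri as past the quantile-normalized fit, Cd68, Dcn, Lum and Pck1 as called in a fit, Ptprc and Rgs5 as past the quantile-normalized fit, C1qb, C1qc, Cd5l and Timd4 as without overlap, and Alb, Clec4f, Csf1r and Krt19 as defining markers. Prom1, Sox9, Epcam, Cftr and Muc1 were named as the rest of the biliary sum. Promoter sequences are RefSeq's (GRCm38.p6). Alternatives were other scales, pseudocounts of 1 and 64, other filters, the median of a gene's rows, other variance estimates and leaving out each array. With median scaling, the deposited scale alone or quantile normalization alone, a call needed only that fit.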

Additional observations from a re-analysis of the deposited data

How the results depend on the processing

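Anxa2 was called in all 16 alternative settings and Anxa5 in 12 of 16. With median scaling Anxa5 had 1.39 and was not called, which left 1 of the 10 genes called. Leaving out 1 array at a time gave 1 to 2 of the 10 genes called higher and 0 called lower, with Anxa5 at 1.30 to 1.51 and not called without SRSF1HKO replicate 2 or 3 or WT replicate 2. On the deposited values the differences of Anxa4, Anxa6 and Anxa7 reversed to -0.33, -0.31 and -0.25, where the median of all genes lay at -0.44. Calls from the quantile-normalized fit alone, a rule added after the data were seen, took in S100a10 at 0.85.

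Of the related and marker genes, 1 was called higher and 1 lower. The count higher was 3 with median scaling, a pseudocount of 64 or the median of a gene's rows, 6 in the quantile-normalized fit alone, and 0 to 3 without single arrays; it was 0 without SRSF1HKO replicate 2 and 3 without SRSF1HKO replicate 1 or WT replicate 1. The count lower was 3 on the deposited values, 0 with median scaling, 2 in the quantile-normalized fit alone and 0 to 3 without single arrays; it was 3 without SRSF1HKO replicate 1 and 0 without WT replicate 1 or 3. Over all genes 161 were called higher and 267 lower, and without SRSF1HKO replicate 1 these counts were 183 and 1010. Median scaling gave 267 and 50, the deposited values alone 178 and 1311 and the quantile-normalized fit alone 522 and 270, each by that fit alone. The causes of these changes were not tested. No paired analysis was possible because the labels give no replicate numbers that link samples of the 2 groups. Anxa1, Anxa3 and Anxa13 lie near the median intensity of the arrays, which limits what they can show.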
